A study of Physcomitrium patens with 6 samples.

Results

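Of the 241351 transposable elements (TEs) in the count table of the moss *Physcomitrium patens*, 705 (0.292%) had at least 1 read in each of the 6 RNA-seq libraries. These TEs were chosen on the counts themselves, so their presence in every library, and the exclusion of any TE that was silent in 1 genotype, describe the choice and are not findings. The 6 libraries, 3 of wild type and 3 of *Ppddm1*, hold RNA of protonema, the branching filaments that a young moss plant forms. Both genotypes were of the Grandsen strain and were grown for 7 days on BCDAT medium, at 25 °C, with a day of 16 h and a night of 8 h. *Ppddm1* is a single knockout line in which a Zeocin resistance cassette took the place of the *PpDDM1* gene, and wild type carried no such change. The libraries were made from the polyA fraction of 500 ng of total RNA. Batch 1 of the labels holds the libraries numbered 1 and 2 of either genotype, and batch 2 those numbered 3. Whether replicates were separate cultures is not stated, and a p-value therefore refers to the spread among these libraries only, which may be technical.

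TEs are repeated DNA sequences that can move or copy themselves within a genome, and plants keep most of their copies silent through DNA methylation and compact chromatin. DDM1, a SWI/SNF2 chromatin remodeler, lets DNA methyltransferases reach nucleosome-bound DNA, and in flowering plants its loss is known to release many TEs from silencing. PolyA RNA counted at a TE copy in wild type need not come from a copy that is active there. Such RNA can start inside the TE or can be part of a transcript of a neighbouring gene that runs through it, and the counts do not tell these sources apart. The table identifies each TE by a number alone, and no family, length, position or sequence was paired with it here.

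The counts of a library, over genes and TEs, summed to between 2784259 and 10536543, and TEs held from 0.684% to 0.721% of them. These totals of the count table are not the library sizes that the study lists, which the deepest library exceeds and the shallowest falls well short of. The reason was not found, and depth here means the total of the table. Levels are given in CPM, the count of a TE scaled to a library total of 1000000, so that 1 count was worth 0.359 CPM in the shallowest library, wild type 1, and 0.0949 CPM in the deepest, *Ppddm1* 3. CPM is not scaled to length, so a longer TE gathers more reads and an order of levels is an order of reads, not of transcripts. The authors assigned reads that matched several places to 1 of them at random, so the level of a TE with near-identical copies is uncertain. *PpDDM1*, the gene Pp3c17_19520, had 15.1, 18.2 and 26.5 CPM in wild type and 1.06, 0.974 and 1.04 CPM in *Ppddm1*, with no overlap (log2 fold change -4.31, SE 0.32, adjusted p = 1.93e-05).

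Most reads from TEs came from the 705, which follows in part from the rule, since it favours TEs with many reads. A further 5474 TEs had reads in 1 to 5 libraries, and 235172 TEs (97.4%) had none in any library. Of the TEs with reads, 3698 were read in 1 library, 892 in 2, 441 in 3, 225 in 4 and 218 in 5. The 705 held 92.4% of all TE reads, and the 3698 TEs read in 1 library held 2.06%. The median summed count over the 6 libraries was 74 for the 705 and 1 for the TEs read in a single library. With any 1 library left out of the rule, 710 to 784 TEs would pass. The most would pass without wild type 1, the shallowest library, and the fewest without *Ppddm1* 3, the deepest, but 745 would pass without the second deepest, wild type 3, and 735 without wild type 2. Asking for reads in wild type alone gave 811 TEs, and in *Ppddm1* alone 1096.

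**Figure D1:**
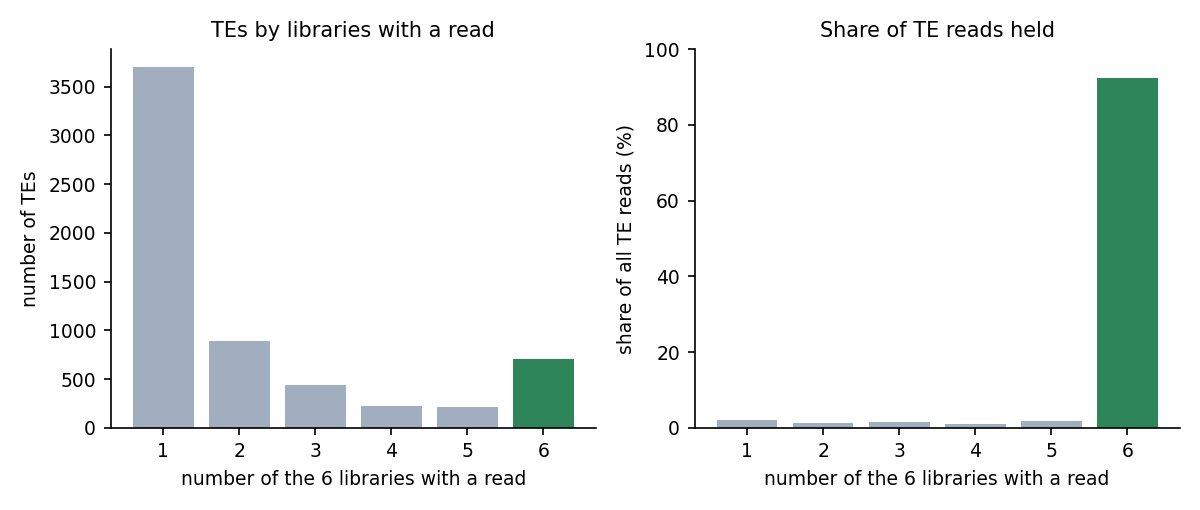
Number of TEs (left) and share of all TE reads in percent (right) by the number of libraries in which a TE had at least 1 read. The 705 TEs read in all 6 libraries are a small class by number and hold 92.4% of TE reads.

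The edge of the rule lies at very low counts. Among the 705, 165 had a count of 1 in at least 1 library, with mean levels from 0.227 to 20.4 CPM and a median of 0.768 CPM. The 218 TEs that missed 1 library had mean levels from 0.167 to 9.17 CPM and a median of 0.450 CPM. The library missed was most often wild type 1, for 79 of them, and least often *Ppddm1* 3, for 5. TEs just inside and just outside the rule therefore overlapped in level. With at least 3 counts in every library 462 TEs would pass, with at least 5 counts 352, and with at least 10 counts 223.

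The summed level of the 705 TEs was nearly the same in both genotypes. It was 6817, 6430 and 6559 CPM in wild type (mean 6602 ± 197 CPM, SD, n = 3) and 6599, 6404 and 6407 CPM in *Ppddm1* (mean 6470 ± 112 CPM, SD, n = 3). The ranges overlapped, and the mean of *Ppddm1* was 0.98 of that of wild type. Because the sum follows the members chosen, it was not tested. Without the 10 TEs of highest level the mean of wild type was 4059 CPM and that of *Ppddm1* 4078 CPM. This gap is smaller than either SD of the full sums, so it gives no order of the genotypes. Scaled by the TMM factors used in the test, the 705 summed to a mean of 6676 CPM for wild type against 6400 for *Ppddm1*. The sums without the 10 were not taken on that scale.

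As a share of TE reads, the 705 stood lower in *Ppddm1*. Their share was 94.5%, 94.0% and 94.0% in wild type and 91.5%, 89.9% and 91.4% in *Ppddm1*, and the genotypes did not overlap. The 95% exact binomial intervals (Clopper-Pearson) of single libraries lay within 93.7% to 94.8% in wild type and within 89.6% to 91.9% in *Ppddm1*, and they cover counting error only. The TEs outside the rule moved the other way, with 398, 412 and 416 CPM in wild type and 611, 716 and 600 CPM in *Ppddm1*. Their mean was 1.57 times higher in *Ppddm1*, while that of the 705 was 0.98 of wild type. More TEs were read only in *Ppddm1* (3019) than only in wild type (1338), and such TEs cannot be among the 705. The lower share of the 705 in *Ppddm1* is therefore shaped by the choice of TEs, and it was not tested. The total of *Ppddm1* 3 was the largest of all libraries, and its part in the count of 3019 was not tested.

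Reads were concentrated in few copies. The mean level over the 6 libraries ran from 0.227 to 394 CPM, with a median of 2.36 CPM, an upper quartile of 5.70 CPM and a 95th percentile of 27.8 CPM. The single TE of highest level held 6.03% of the summed level, the 3 highest 17.7%, the 10 highest 37.8%, the 50 highest 63.7% and the 100 highest 74.6%. A share of 50% was reached by 21 TEs (2.98% of the 705), 75% by 103 and 90% by 272. The 353 TEs of lowest level together held 6.44%. Set beside genes, reads were held by fewer TEs. Of the 18429 genes with reads in every library, 1349 (7.32%) were needed for 50% of their summed level, and the 10 highest held 3.97%. At the same proportion as 10 of 705, 261 genes held 24.7%. Genes were more highly read, with a median of 22.3 CPM.

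**Figure D2:**
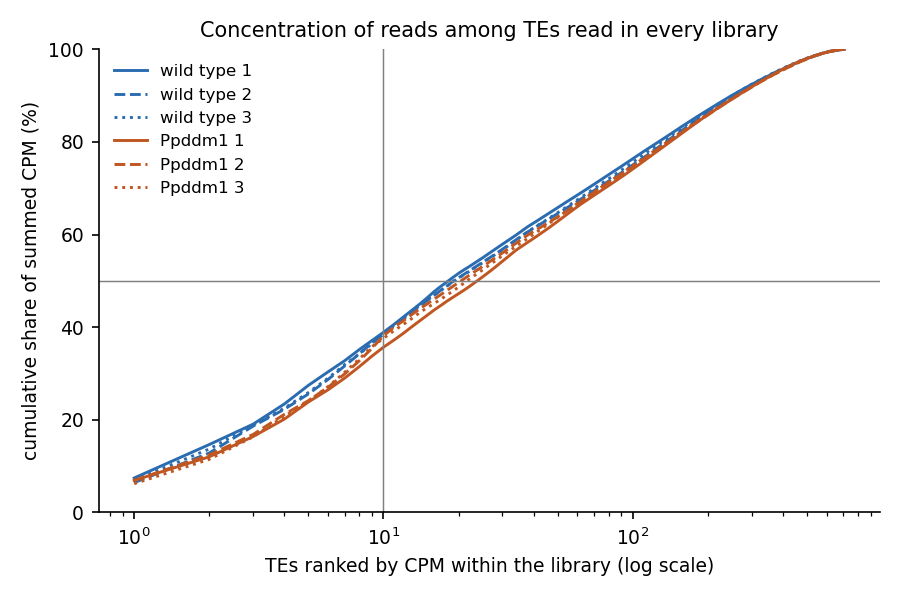
Cumulative share of the summed level of the 705 TEs (percent) against the rank of the TE by CPM within the library (log axis), with 1 curve for each of the 6 libraries. Grey lines mark rank 10 and a share of 50%. From 19 TEs (wild type 1) to 24 TEs (*Ppddm1* 1) reach 50%.

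The concentration was present in each library. The 10 TEs of highest mean level held 38.5%, 38.5% and 38.5% of the level of the 705 in the wild type libraries and 35.7%, 38.2% and 37.1% in the *Ppddm1* libraries. The number of TEs needed for 50% was 19, 20 and 20 in wild type and 24, 21 and 22 in *Ppddm1*. When the 10 highest were ranked anew in each library, 9 TEs were in the list of every library and 12 in that of any library. Across the 705 TEs, the log2 levels of a pair of libraries of the same genotype had a Pearson r of 0.849 to 0.923 (6 pairs). For pairs across genotypes r was 0.825 to 0.875 (9 pairs). These values are over TEs, which are not replicates, and both pools of pairs share libraries.

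None of the 10 TEs of highest level was called changed. In 3 of them all *Ppddm1* values were above those of wild type, and in 2 below, where 12.5% of all features tested lay above and 10.8% below. The TE of rank 1 had 507, 414 and 442 CPM in wild type and 336, 351 and 312 CPM in *Ppddm1*. All its *Ppddm1* libraries lay below all its wild type libraries (log2 fold change -0.48, SE 0.12, adjusted p = 0.0402), a decrease that passed the p threshold but not the 2-fold limit of a call. The TE of rank 6, the next one in the table, had 296, 214 and 241 CPM in wild type and 174, 173 and 171 CPM in *Ppddm1*. It was also lower without overlap and under 2-fold (log2 fold change -0.56, SE 0.14, adjusted p = 0.0311). These neighbours are 2 of 5 TEs lower at an adjusted p under 0.05 by less than 2-fold, and the others were of ranks 14, 17 and 18. Neither held the p threshold throughout, although both stayed lower. With batch as a term the adjusted p was 0.0837 for rank 1 and 0.0686 for rank 6, and in batch 1 alone 0.513 and 0.400. Rank 1 stayed under 0.05 without *Ppddm1* 1 but not without any other library (0.0368 to 0.226), and it was at 0.0545 with library totals and 0.0563 with upper quartile factors. Rank 6 stayed under 0.05 without wild type 2 or *Ppddm1* 1 but not without the others (0.0380 to 0.159).

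TEs 872213, 863911 and 970145 were the members of the highest 10 whose *Ppddm1* libraries all lay above wild type, and none passed the test. TE 872213, of rank 4, had 199, 233 and 223 CPM in wild type and 245, 284 and 283 CPM in *Ppddm1* (log2 fold change 0.28, SE 0.12, adjusted p = 0.246). TE 863911, of rank 8, had 162, 166 and 149 CPM in wild type and 167, 174 and 199 CPM in *Ppddm1* (log2 fold change 0.15, SE 0.12, adjusted p = 0.589). TE 970145, of rank 10, had 121, 122 and 131 CPM in wild type and 151, 185 and 183 CPM in *Ppddm1* (log2 fold change 0.44, SE 0.12, adjusted p = 0.0583). The last is the nearest of the 3 to the threshold, with a 95% interval of the fold from 1.13 to 1.64.

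The other 5 of the 10 overlapped between genotypes. TE 886141, of rank 2, had 300, 410 and 456 CPM in wild type and 289, 444 and 397 CPM in *Ppddm1*, the lowest value of each genotype being in replicate 1. TE 761643, of rank 3, had 492, 374 and 337 CPM in wild type and 457, 278 and 337 CPM in *Ppddm1*, with the highest value of each genotype in replicate 1. TE 846975, of rank 5, had 276, 188 and 194 CPM in wild type and 247, 179 and 205 CPM in *Ppddm1*, again with replicate 1 highest in both. For these TEs the spread within a genotype exceeded the difference between the genotype means, and the log2 fold changes were -0.08, -0.20 and -0.09.

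TE 760358, of rank 7, had 165, 154 and 147 CPM in wild type and 162, 189 and 207 CPM in *Ppddm1*, so that *Ppddm1* 1 fell among the wild type libraries (log2 fold change 0.23, adjusted p = 0.384). TE 931655, of rank 9, varied most among the 10, with a coefficient of variation of 34.3% over the 6 libraries. It had 109, 202 and 204 CPM in wild type and 126, 187 and 84.1 CPM in *Ppddm1*. Its 95% interval of the fold ran from 0.459 to 1.20, and a 2-fold decrease lies within that interval. For the other 9 of the 10 the interval lay inside 2-fold either way.

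**Figure D3:**
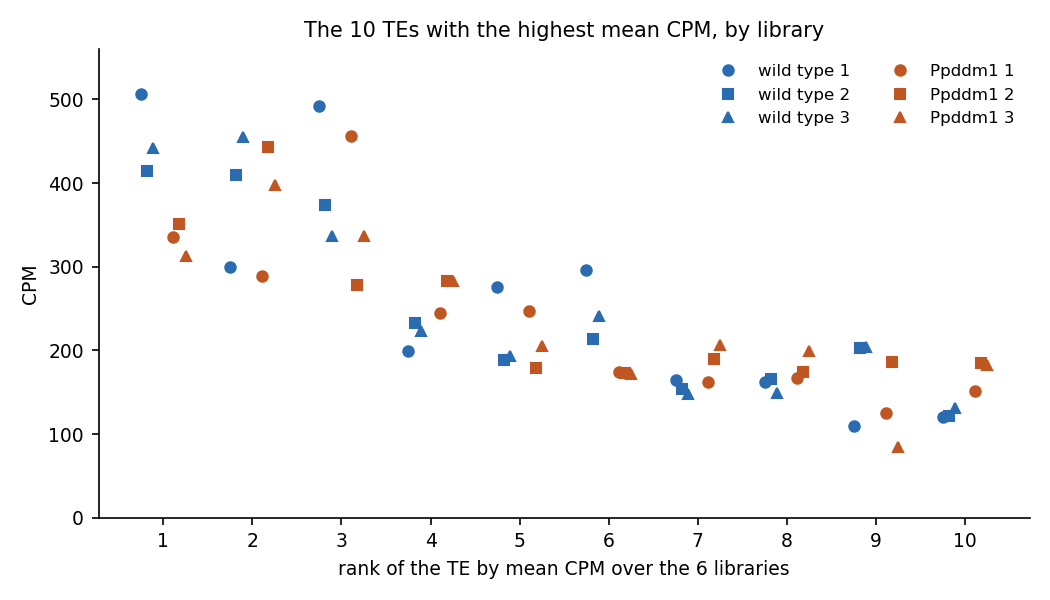
Level in CPM of the 10 TEs of highest mean level in each of the 3 wild type and 3 *Ppddm1* libraries, with 1 point per library and TEs ordered by rank. The points of ranks 1 and 6 are lower in *Ppddm1* without overlap, those of ranks 4, 8 and 10 are higher without overlap, and the rest overlap.

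How closely a TE could be followed depended on its level. Of the 705 TEs, 146 had a mean under 1 CPM, 454 had 1 to 10 CPM, 94 had 10 to 100 CPM and 11 had 100 CPM or more. These classes held 1.52%, 23.1%, 36.0% and 39.4% of the summed level. The median SD of log2 level among libraries of a genotype was 0.81, 0.51, 0.22 and 0.14 in the same order. Genes read in every library had medians of 0.80, 0.45, 0.20 and 0.16 in those classes. At like levels the spread of TEs was thus near that of genes, though above it in each class under 100 CPM. Over all levels, the median SE of the log2 fold change was 0.43 for the TEs tested and 0.20 over all features tested.

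The 3 TEs that varied least, among the 53 with at least 50 counts in every library, were 970165, 971049 and 863358. TE 970165, of rank 19, had 66.8, 61.1 and 60.0 CPM in wild type and 63.2, 60.9 and 56.8 CPM in *Ppddm1*, a coefficient of variation of 5.45%. TE 971049, of rank 29, had 40.2, 35.8 and 35.4 CPM in wild type and 40.6, 35.8 and 39.4 CPM in *Ppddm1*. TE 863358, of rank 26, had 33.4, 40.0 and 41.9 CPM in wild type and 40.1, 40.0 and 38.7 CPM in *Ppddm1*. The genotypes overlapped in each of them. Their 95% intervals of the fold were 0.779 to 1.14, 0.836 to 1.25 and 0.816 to 1.22. Over the 53 TEs the coefficient of variation ran to 41.7%, with a median of 16.6%.

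For 190 of the 701 TEs tested (27.1%) the 95% interval of the fold lay inside 2-fold either way, so that the interval held no change of that size. Over all genes and TEs tested that share was 67.8%. No TE under 1 CPM, 101 of the 454 with 1 to 10 CPM, 79 of the 94 with 10 to 100 CPM and 10 of the 11 at or above 100 CPM were among the 190. For the remaining TEs the interval reached a change of 2-fold or more, and a lack of call does not show that they were stable. At 1 to 10 CPM, the class of 454 of the TEs, the share was 22.25% of TEs and 39.33% of genes. The median SE of the log2 fold change there was 0.41 for TEs and 0.34 for genes. At 10 to 100 CPM the share was 84.0% of TEs and 90.9% of genes, and at or above 100 CPM 90.9% and 91.6%.

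Of the 705, 701 had at least 10 counts over the 6 libraries and were tested together with genes and other TEs, 20647 features in all, by edgeR's quasi-likelihood test with Benjamini-Hochberg adjustment. The 4 left out had 6 to 9 counts. A call required a change of 2-fold or more together with an adjusted p under 0.05. In *Ppddm1*, 12 TEs were called higher and 12 lower, against 0.741% called higher and 2.41% called lower over all features tested. With both directions together that is 3.42% of the 701, close to the 3.15% of all features. By direction they were not alike, with 12 higher and 12 lower among the 701 but 153 higher and 498 lower over all features. That difference was not tested. The other 320 TEs tested, which lacked reads in at least 1 library, had 34 called higher and 3 called lower. Since the rule left out the TEs that were silent in 1 genotype, this contrast is set by the choice and was not tested.

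The median log2 fold change of the 701 was -0.02, beside 0.01 over all features, with 335 above and 366 below 0. The central 90% of the TEs lay between -1.33 and 1.07, and of all features between -1.07 and 0.77. At an unadjusted p under 0.05 there were 124 of the 701 TEs, 51 higher and 73 lower, against 7.39% higher and 10.6% lower over all features tested. Every *Ppddm1* library was above every wild type library for 77 of the 705 TEs and below for 76, while over all features tested 12.5% were above and 10.8% below. The shares of TEs whose genotypes did not overlap were thus near the background. A further 7 TEs passed the adjusted p at less than 2-fold, 2 higher and 5 lower, against 0.741% higher and 1.85% lower over all features tested.

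The counts of calls shifted as single libraries were left out. TEs called higher numbered 7 without wild type 2, 7 without wild type 3 and 7 without *Ppddm1* 3. Among all features tested, 94, 74 and 76 were called higher in that order, against 153 with all 6 libraries. The most TEs called higher were 14, without wild type 1, beside 194 over all features. TEs called lower numbered 6 without wild type 2, 6 without wild type 3, 6 without *Ppddm1* 2 and 5 without *Ppddm1* 3. Over all features tested, 391, 346, 369 and 358 were called lower in that order, against 498 with all 6 libraries. The most TEs called lower were 16, without *Ppddm1* 1, beside 536 over all features. Within batch 1 alone, 5 were called higher and 1 lower, beside 35 and 230 over all features. Batch 2 has 1 library per genotype and allows no test. With batch as a term in the model 10 were called higher and 9 lower, beside 118 and 457 over all features. Of the 12 in each direction, 5 higher and 4 lower were called whichever library was left out.

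**Figure D4:**
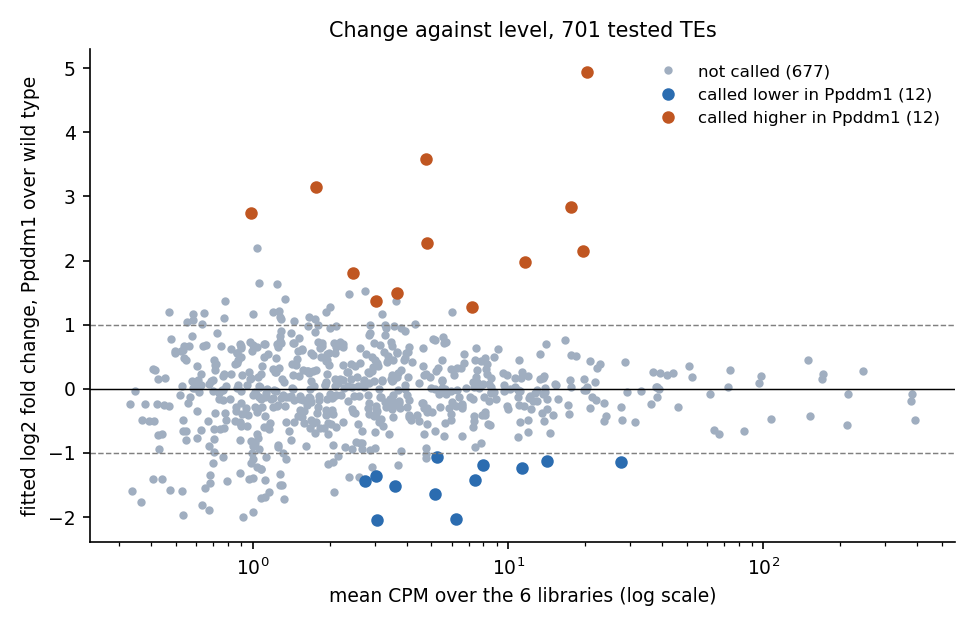
Log2 fold change of *Ppddm1* over wild type against mean level (CPM, log axis) for the 701 TEs tested, with TEs called higher and lower marked and lines at 2-fold. The 24 called TEs lie below 100 CPM, and the scatter of the others narrows as the level rises.

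The 12 TEs called higher were minor copies in wild type. Their ranks by mean level ran from 49 to 565, and their fitted log2 fold changes from 1.27 to 4.95, with a median of 2.22 and 7 at 4-fold or more. Together they had 34.5, 29.3 and 24.7 CPM in wild type and 174, 172 and 154 CPM in *Ppddm1*, that is 29.5 ± 4.91 and 166.7 ± 10.8 CPM (SD, n = 3). They rose from 0.446% to 2.58% of the level of the 705, by construction of the call. In 9 of the 12 the lowest wild type count was under 10.

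TE 804154, of rank 49, rose most. It had 2.16, 0.234 and 1.48 CPM in wild type and 45.9, 40.2 and 32.6 CPM in *Ppddm1*, from counts of 6, 1 and 9 against 173, 165 and 343. The lowest *Ppddm1* library was far above the highest wild type library (log2 fold change 4.95, SE 0.33, adjusted p = 6.49e-06). A TE of rank 58 had a similar level in *Ppddm1* from a higher start, with 5.39, 5.38 and 2.63 CPM in wild type and 30.0, 29.5 and 32.5 CPM in *Ppddm1* (log2 fold change 2.84, SE 0.24, adjusted p = 3.08e-05). Both were called whichever library was left out and in batch 1 alone.

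TE 816028, of rank 206, had 0.359, 0.468 and 0.987 CPM in wild type and 10.9, 8.77 and 7.21 CPM in *Ppddm1* (log2 fold change 3.59, SE 0.42, adjusted p = 0.00022). It too was called whichever library was left out, on wild type counts of 1, 2 and 6. A TE of rank 420 had counts of 2, 1 and 1 in wild type and 12, 16 and 25 in *Ppddm1*, a ratio of 9.46 in pooled level with an exact 95% interval for counting error of 3.48 to 36.0. Its log2 fold change was 3.14 (SE 0.61, adjusted p = 0.00509), and without wild type 3 it was 2.69 and the call was lost.

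A TE of rank 565 sat at the edge of the rule, with 1 count in each wild type library and 5, 9 and 17 counts in *Ppddm1*. Its ratio of pooled levels was 7.37, with an exact 95% interval for counting error of 2.30 to 37.7. The log2 fold change was 2.73 (SE 0.63, adjusted p = 0.0128). The call was lost without wild type 2 (2.75), without wild type 3 (2.44) and without *Ppddm1* 3 (2.78), while the estimate moved little.

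The 12 TEs called lower had higher levels in wild type than those called higher, and they changed less. The first follows in part from the direction of the call. The rule also leaves out TEs that fell to no reads or rose from none, and the contrast was not tested. Their ranks ran from 37 to 324 and their log2 fold changes from -2.05 to -1.06, with a median of -1.39 and 2 at 4-fold or more. Together they had 137, 135 and 141 CPM in wild type and 60.5, 56.3 and 56.4 CPM in *Ppddm1*, that is 137.7 ± 3.10 and 57.7 ± 2.42 CPM (SD, n = 3). All 12 had at least 10 counts in every wild type library, and 6 had fewer than 10 in at least 1 *Ppddm1* library.

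TE 909307, of rank 292, had 3.59, 6.55 and 4.77 CPM in wild type and 1.33, 0.731 and 1.42 CPM in *Ppddm1* (log2 fold change -2.05, SE 0.39, adjusted p = 0.00666). TE 820629, of rank 167, had 9.34, 9.13 and 10.9 CPM in wild type and 3.98, 2.19 and 1.90 CPM in *Ppddm1* (log2 fold change -2.03, SE 0.30, adjusted p = 0.00148). Both were lower in *Ppddm1* without overlap and were called whichever library was left out, though not in batch 1 alone, where the log2 fold changes were -2.37 and -1.62. A TE of rank 194 had 5.75, 9.36 and 8.06 CPM in wild type and 2.39, 3.17 and 2.37 CPM in *Ppddm1* (log2 fold change -1.64, SE 0.30, adjusted p = 0.00514). It lost its call without *Ppddm1* 3, at a log2 fold change of -1.52.

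A TE of rank 252 had 7.18, 5.15 and 3.62 CPM in wild type and 2.12, 2.19 and 1.42 CPM in *Ppddm1* (log2 fold change -1.51, SE 0.38, adjusted p = 0.0351). Its call was lost without wild type 1 (-1.30), wild type 2 (-1.49), *Ppddm1* 2 (-1.63) or *Ppddm1* 3 (-1.23). A TE of rank 324 had 3.59, 3.04 and 4.93 CPM in wild type and 1.86, 1.95 and 1.14 CPM in *Ppddm1* (log2 fold change -1.43, SE 0.39, adjusted p = 0.0488). It stood at the threshold and lost its call when any 1 of the 6 libraries was left out, with log2 fold changes from -1.58 to -1.08.

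**Figure D5:**
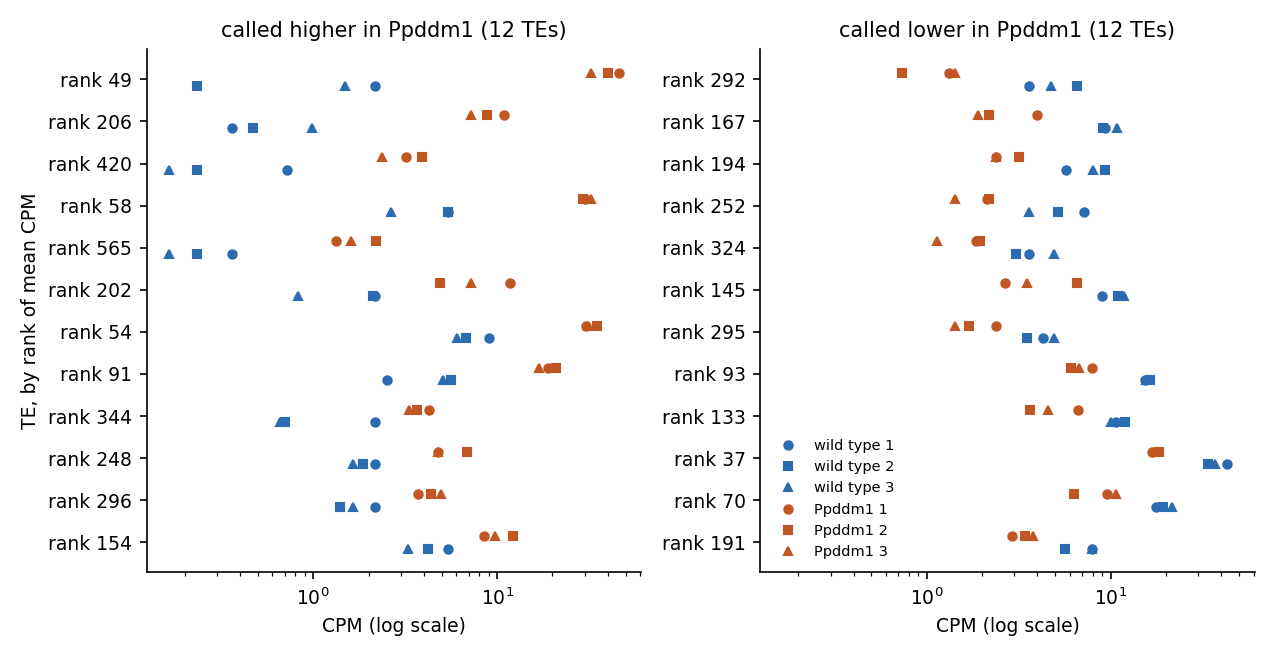
Level in CPM (log axis) of the 12 TEs called higher (left) and the 12 called lower (right) in each of the 3 wild type and 3 *Ppddm1* libraries, by rank of mean level. The TEs called higher lie mostly under 10 CPM in wild type, and no TE in either panel overlaps between genotypes.

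TEs with reads in every library had neighbours with reads more often than TEs at large, though most had none. A TE was taken as a neighbour of another where they stood next to each other in the order of the deposited table. What that order follows is not stated and the distance in bases is unknown, so a neighbour in the table need not be one in the genome. Of the 705, 239 (33.9%) stood next to a TE with a read in some library, beside 16.4% of the TEs with reads in 1 to 5 libraries and 4.96% of all TEs. Of the 705, 129 (18.3%) stood next to another of the 705, in 53 runs, 40 of which were pairs. The TEs of ranks 1 and 6 form a pair, and so do those of ranks 11 and 17, which had log2 fold changes of -0.47 (adjusted p = 0.0573) and -0.71 (adjusted p = 0.00666). Of the 24 called TEs, 2 stood in a run.

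Neighbours were closer in level and in change than members with other TEs between them. Of the 76 neighbouring pairs, 39 had numbers that differed by 1 and 37 did not. Across the 76, Pearson's r between the log2 mean levels was 0.66, and between the log2 fold changes 0.38 (Spearman's rho 0.36). Over the 39 pairs alone r between the log2 fold changes was 0.48. The pairs come from the same 6 libraries, and a TE inside a run belongs to more than 1 pair, so the values are a description. The log2 fold changes of neighbours differed by a median of 0.40 and had the same sign in 48 of 76 pairs (63.2%). Where other TEs stood between consecutive members, both of them tested, r between log2 fold changes was -0.02 over 620 pairs, the median difference 0.65 and the share of the same sign 47.7%. The longest run, singled out after its values were seen, held the 6 TEs from 808449 to 808454, with ranks of 338, 138, 43, 41, 16 and 22. Their log2 fold changes were 0.19, 0.05, 0.33, -0.22, 0.02 and -0.29, and none passed the test, so the signs in this run were mixed.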

How the data were processed

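Reads were trimmed (Trim Galore 0.6.0, cutadapt 1.15) and aligned (STAR 2.7.0f) by the authors, with versions from the submitters' processing notes. The authors assigned multimapped reads at random and deposited raw counts per gene and per TE. The methods name *P. patens* assembly v3.3 with its gene and TE annotations. The counting program and strand setting were not given in the sources used here. Short TEs, which the study set aside for expression, were kept, since no lengths were at hand. Groups, replicates and batches were taken from the labels.

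TEs with at least 1 count in each of the 6 libraries were selected. Features with at least 10 summed counts were fitted in edgeR 4.0.16 (R 4.3.3) with TMM factors and the robust quasi-likelihood fit, on genotype alone, with Benjamini-Hochberg adjustment over genes and TEs together. A call needed an adjusted p under 0.05 and 2-fold. Precision follows depth, and intervals cover counting error or replicate spread as stated. Members and lists were chosen with earlier results of these data known. Named TEs are the 10 of highest mean CPM, the 5 called in each direction with the strongest fitted change, and the 3 least variable with at least 50 counts per library. Because identifiers carry no names, 2 are printed for TEs that rose and 2 for TEs that fell, and the other changed TEs are given by rank. Alternatives used DESeq2 1.42.0, limma-voom (limma 3.58.1), other scalings, filters, thresholds, batch, replicate number and each library left out. Methylation data were not analysed here.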

Additional observations from a re-analysis of the deposited data

How the results depend on the processing

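TEs called higher (12) and lower (12) kept within 1.5 times of those counts under the other scalings (12 higher, 11 or 12 lower), no filter (14 and 13), filterByExpr (10 and 10), DESeq2 (9 and 9), limma-voom (11 and 11), batch as a term (10 and 9), no robust estimation (12 and 12), no minimum fold (14 and 17) and, chosen after seeing the data, the earlier quasi-likelihood method of edgeR (10 and 10). With at least 10 counts in every library 3 were called higher and 6 lower, in batch 1 alone 5 and 1, and under glmTreat, edgeR's test against a 2-fold change, 5 and 0, with 13 TEs lower at an unadjusted p under 0.05 in that test and 12 and 9 called by the usual edgeR test and DESeq2. Over all features, 10 counts in every library gave 48 higher and 342 lower, batch 1 alone 35 and 230, and glmTreat 27 and 100. The main fit gave 153 and 498. The settings that kept within 1.5 times gave 102 to 306 higher and 447 to 879 lower over all features. Leaving out 1 library gave 7 to 14 higher and 5 to 16 lower, beside 74 to 194 and 346 to 536 over all features. Over all settings 2 TEs higher and 0 lower were always called, where a TE left out by a filter counts as not called. TEs 804154 and 816028 were left out by the filter of 10 counts in every library and were called wherever they were tested. Of the 12 called in each direction, 9 higher and 6 lower had a count under 10 in some library. The filter of 10 counts in every library left these untested, and the 3 and 6 that remained kept their calls. The cause of the other shifts was not tested, though batch 1 leaves fewer libraries. Same-numbered libraries of the genotypes deviated together for number 1 (r = 0.23) and number 2 (r = 0.17) but not for number 3 (r = -0.01) over all features, so the numbers were not taken as pairs. Wild type 3 deviated most like *Ppddm1* 2 (r = 0.15), and the libraries numbered 1 and 2 most like their own number. A replicate block gave 16 higher and 15 lower, beside 196 and 539 over all features.

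The number of TEs was 462, 352 and 223 at 3, 5 and 10 counts in each library. Summed levels without the 10 highest TEs were 4059 CPM (wild type) and 4078 CPM (*Ppddm1*). The share of the 10 highest in wild type was 38.6% when ranked in each library, and of all TE reads it was 36.3% in wild type and 33.6% in *Ppddm1*.

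Some uncalled log2 fold changes near 0 changed sign. With 1 library left out, TE 886141 ran from -0.228 to 0.0766, TE 846975 from -0.218 to 0.114, TE 971049 from -0.0107 to 0.0935 and TE 863358 from -0.0798 to 0.0632. In batch 1 alone TE 886141 was 0.0011, TE 971049 was -0.0321 and TE 863358 was 0.0777. TE 863358 was also 0.0282 with library totals, 0.0217 with upper quartile factors, 0.0038 with no filter and 0.00047 with batch as a term.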

Other observations

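Among the 53 TEs with at least 50 counts in every library, deviations of log2 CPM from the genotype mean had a Pearson r of 0.29 between the libraries numbered 1, 0.47 between those numbered 2 and -0.16 between those numbered 3. The lowest value over all pairs across genotypes was -0.50, between wild type 1 and *Ppddm1* 2. With 3 libraries per genotype the deviations of a TE sum to 0, so these values depend on each other.

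TEs with reads in 1, 2, 3, 4 and 5 libraries had summed levels of 122, 65.8, 52.4, 62.9 and 105 CPM in wild type and 161, 96.3, 149.5, 87.6 and 148 CPM in *Ppddm1*, higher in *Ppddm1* in each of the 5 classes. The 705 TEs had 6602 and 6470 CPM. All these values are means of 3 libraries. The classes were set by the same counts, so the order of the genotypes in them is a description and was not tested. *Ppddm1* 3 had the largest total of all libraries, and its part in these values was not tested.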
